A study of Mus musculus with 95 samples.

Results

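Expression in mouse embryonic stem cells without Pcgf1 was compared with that in the wild-type E14 line, a male line derived from the inner cell mass. All genes of the deposited count table were considered, in 4 of the 14 RNA-seq libraries: 2 labelled wild-type E14 and 2 labelled Pcgf1-/-. Of 23377 genes in the table, 13450 had enough counts to be tested. The series holds 95 samples, most of them ChIP-seq of the same lines. Per the labels' protocols, cells of both groups had serum, leukaemia inhibitory factor, a GSK3β inhibitor (CHIR99021) and a MEK1/2 inhibitor (PD0325901) on gelatin-coated plastic, so wild-type values are also those of cells under both inhibitors. The knockout was made with Cas9 and guide RNAs from a plasmid, and clones were screened by PCR, Western blot and Sanger sequencing. Both knockout libraries carry the same numbered line name in the count table, and the labels do not say whether it marks 1 clone. If it does, changes of that clone and those of losing Pcgf1 cannot be told apart. The labels also do not say whether the libraries of a group are separate cultures. The p-values thus measure the spread between these libraries, which may be technical.

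PCGF1 is 1 of a family of related RING finger proteins, which join RING1A or RING1B (encoded by Ring1 and Rnf2), each in its own form of Polycomb repressive complex 1, which places ubiquitin on histone H2A. The PCGF1 form also holds BCOR or its relative BCORL1, RYBP or YAF2, and KDM2B, whose zinc finger binds unmethylated CpG-rich DNA. Polycomb repressive complex 2, with its subunit SUZ12, places methyl groups on lysine 27 of histone H3, and both kinds of complex are found at silent developmental genes of embryonic stem cells. The comparison asks which genes change without PCGF1 and whether they carry PCGF1, RING1B or SUZ12 in wild-type cells.

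Wild-type libraries held 6827571 and 6967931 counts, and Pcgf1-/- libraries 7848161 and 4501409. Levels are CPM, counts scaled to a common library size, with library sizes adjusted by the TMM method. The wild-type libraries differed by less than sampling noise over tested genes, with a chi-square of 0.939 per degree of freedom, and were counted as 1 sample where a mean is given. The knockout pair differed far more, at 11.02 per degree of freedom. Its ratios also ran with level: the median log2 ratio of knockout library 1 over library 2 was 0.33 in the decile of genes with the lowest levels and −0.31 in the decile with the highest. The number of genes called with the wild-type libraries summed into 1 sample is given beside the main counts.

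**Figure D1:**
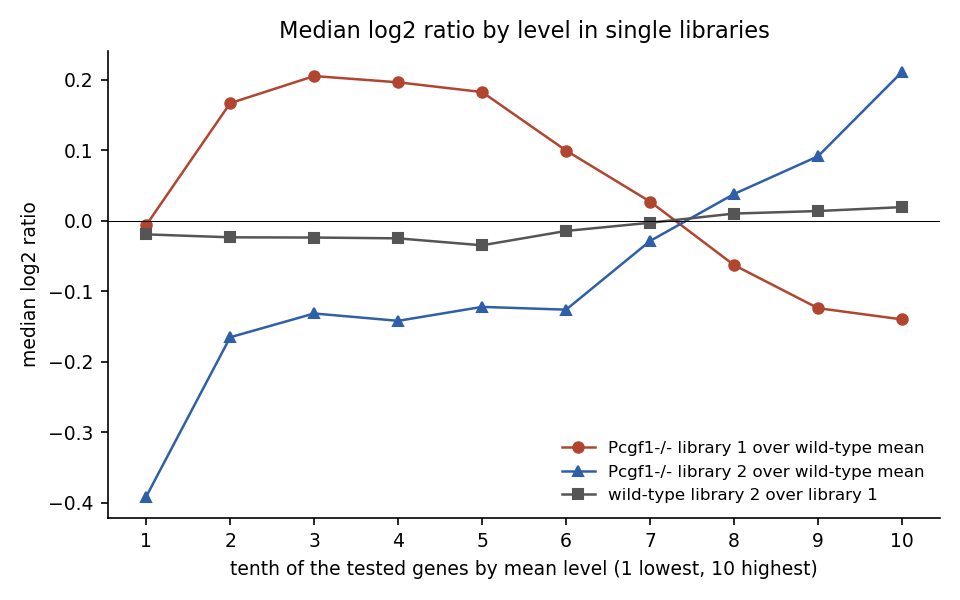
Median log2 ratio (y axis) in each decile of the tested genes by mean level (x axis, 1 lowest), for each Pcgf1-/- library over the wild-type mean and for wild-type library 2 over library 1. The knockout lines cross, from −0.01 and −0.39 in the lowest decile to −0.14 and 0.21 in the highest, whereas the wild-type line stays between −0.03 and 0.02.

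Pcgf1 itself stood at 67.3 and 62.0 CPM in the wild-type libraries and at 5.46 and 3.26 CPM in the Pcgf1-/- libraries (4.36 ± 1.56, SD, n = 2). Its log2 fold change was −3.80 (SE 0.23, adjusted p = 8.30e-06, quasi-likelihood F test of edgeR, Benjamini-Hochberg, as for every adjusted p below unless another fit is named). The gene lies at chr6:83028380-83030841 on the plus strand (NCBIM37), and its level was low in both libraries labelled Pcgf1-/-. Among its relatives, Pcgf5 was lowered, from 13.2 and 10.99 to 6.08 and 4.19 CPM (log2 −1.19, adjusted p = 0.0170), and so was Pcgf2, a member of canonical PRC1, from 43.7 and 49.7 to 34.3 and 28.8 CPM (log2 −0.55, adjusted p = 0.0268). Neither passed with the wild-type libraries as 1 sample, at adjusted p = 0.157 and 0.288. Bmi1 (log2 0.17, SE 0.24), Pcgf6 (0.11, SE 0.16) and Pcgf3 (0.01, SE 0.26) did not pass the test.

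The partners of PCGF1 did not move one way. Kdm2b was lowered from 209 and 208 to 139 and 115 CPM (log2 −0.72, adjusted p = 0.00224). Yaf2 was raised from 24.7 and 25.8 to 41.7 and 43.0 CPM (log2 0.74, adjusted p = 0.00716), and Bcor from 35.2 and 30.3 to 56.7 and 41.6 CPM (log2 0.60, adjusted p = 0.0281). With the wild-type libraries as 1 sample these 3 partners no longer passed, with adjusted p = 0.0588, 0.155 and 0.227. The log2 fold changes of the other 6, Skp1a (−0.20), Rnf2 (0.14), Rybp (0.10), Ring1 (0.16), Bcorl1 (0.07) and the deubiquitinase gene Usp7 (0.00), did not pass the test either.

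In all, 4003 genes changed, 29.8% of those tested. The number raised was 2170 (16.1%) and the number lowered 1833 (13.6%). At a log2 change of at least 1, 1072 genes were raised (7.97%) and 861 lowered (6.4%). With the wild-type libraries as 1 sample, 1644 genes passed, 861 raised (6.1% of 14106 tested) and 783 lowered (5.55%), and 759 and 702 of them were among those called above. DESeq2 called 1507 raised (11.2%) and 1323 lowered (9.84%). Genes called in opposite directions by these fits numbered 0. Of the changed genes, 54.2% were raised, and when all 14 RNA-seq libraries shared the fit that share was 42.9% (2146 raised, 2853 lowered). In the authors' deposited table for the same comparison, 2280 genes were raised and 2335 lowered at an adjusted p below 0.05. Of the genes called here, 1981 raised and 1732 lowered ones were called the same way in the authors' deposited table, and 0 the opposite way.

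**Figure D2:**
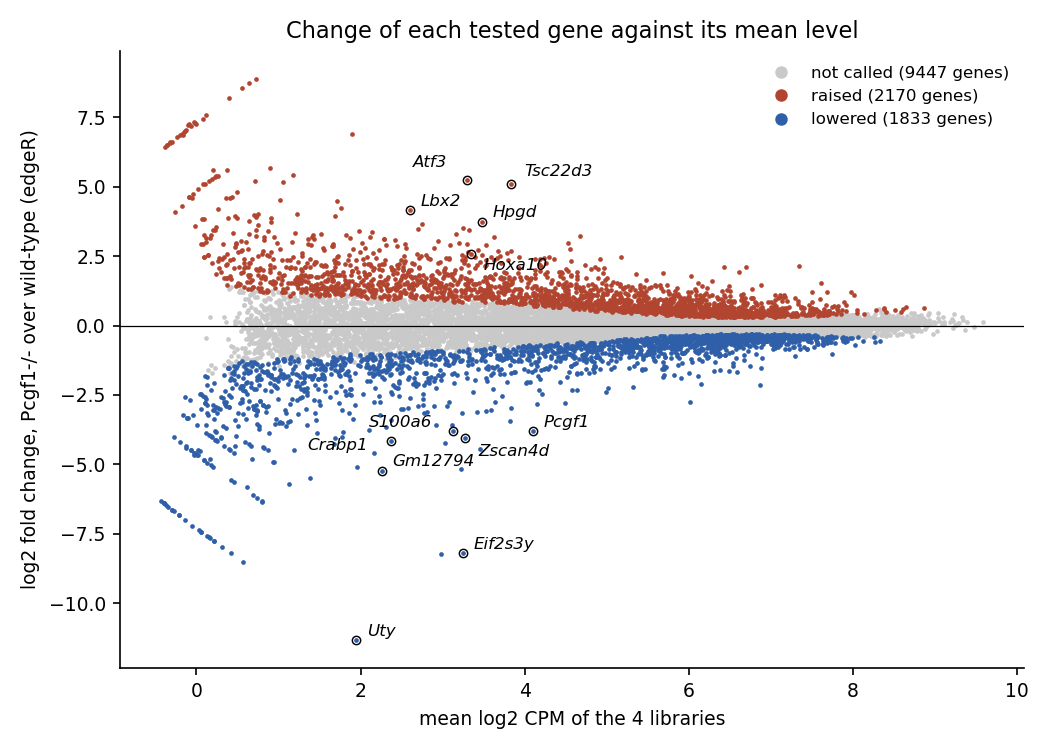
Log2 fold change of Pcgf1-/- over wild-type from edgeR (y axis) against the mean log2 CPM of the 4 libraries (x axis), 1 point per tested gene, with raised genes in red, lowered genes in blue and 12 named genes circled. Atf3 and Tsc22d3 lie at 5.25 and 5.08, Pcgf1 at −3.80 and the Y-linked genes lowest. The slanted rows of points at the left are genes with no counts in 1 of the groups, whose fitted values are no bounds.

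Among genes that passed, had a mean log2 CPM of at least 2 and did not overlap between the groups, the largest rise was that of Atf3, a stress-induced transcription factor gene. It stood at 1.45 and 1.43 CPM in wild-type and at 61.3 and 49.3 CPM in Pcgf1-/- libraries (55.3 ± 8.50, SD, n = 2), 38.1-fold higher (log2 5.25, SE 0.28, adjusted p = 4.84e-06). Tsc22d3, the X-linked gene of the glucocorticoid-induced leucine zipper protein, went from 2.03 and 2.57 to 82.0 and 74.9 CPM, 33.9-fold higher (adjusted p = 6.97e-07). Both genes were near the bottom of the tested range in wild-type cells, and in neither did the groups overlap.

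Lbx2, a homeobox gene, was raised 18.0-fold, from 0.872 and 1.71 to 23.7 and 23.5 CPM (adjusted p = 5.13e-05). Lbx2 is the next tested gene after Pcgf1 on the plus strand, at chr6:83036359-83038237, and begins 5517 bases past the annotated end of Pcgf1. The effect of losing the protein and that of editing the locus cannot be told apart for such a neighbour. In the Pcgf1/2/4-/- line, in which Pcgf1 was also edited, Lbx2 stood at 19.76 and 18.97 CPM, and in the Pcgf2/4-/-, Pcgf3/5-/- and Pcgf6-/- lines between 0.936 and 2.81 CPM (these values are scaled over the 14 libraries). Of 13 tested genes within 50 kb of Pcgf1, 2 were raised (Lbx2 and Dok1), where 16.1% of all genes were, and 1 was lowered (13.6% of all genes were), Loxl3, a lysyl oxidase gene 25823 bases away, from 19.2 and 17.7 to 5.59 and 2.56 CPM (adjusted p = 0.00144). Dok1 and Loxl3 were picked for this mention after their values were seen.

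The other 7 of the 10 largest rises ran from 13.4-fold to 9.77-fold. Hpgd, which encodes a prostaglandin-degrading enzyme, stood at 3.05 and 2.71 against 40.2 and 37.2 CPM (adjusted p = 2.20e-05). Hsd17b1, whose product reduces oestrone to oestradiol, stood at 1.74 and 1.71 against 23.3 and 20.7 CPM, and Hhip, the gene of a Hedgehog-binding antagonist, at 2.76 and 2.57 against 33.6 and 26.5 CPM. Tap1, a subunit of the peptide transporter that loads MHC class I, rose from 3.05 and 2.43 to 30.4 and 22.8 CPM. The remaining 3 were Slc44a3 (10.8-fold), Pdzd7 (10.2-fold) and Slc35g2, at 1.60 and 2.00 against 21.7 and 17.9 CPM. None of the 10 carried a wild-type PCGF1 peak at its promoter (0), as did only 2.19% of tested genes with an annotated start. A RING1B peak was at 6 (Atf3, Tsc22d3, Lbx2, Hsd17b1, Hhip and Tap1), against 13.9% of those genes. A SUZ12 peak was at 8, all but Hpgd and Slc44a3, against 14.7%. Both peaks were more frequent at lower levels: of 4021 such genes with a mean log2 CPM of 2 to 5, 880 carried a RING1B and 970 a SUZ12 peak. Tap1, Slc44a3 and Pdzd7 each overlap a gene on the other strand, and the sources used here do not give whether counting used strand.

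Apart from Pcgf1 itself and Y-linked genes, the genes lowered most included members of the group that marks the rare two-cell-like cells of stem cell cultures, which resemble the embryo at its genome activation and are driven by the factor DUX. Of 8 tested genes on a list of such genes, 7 were lowered and 0 raised, against 13.6% lowered over all genes, and 6 were lowered with the wild-type libraries as 1 sample. The median log2 change was −3.35, against 0.02 over all genes. Zscan4d stood at 44.9 and 45.3 CPM in wild-type and 3.97 and 0.698 CPM in Pcgf1-/- libraries (log2 −4.03, adjusted p = 7.19e-05). Dux stood at 11.5 and 13.0 against 0.993 and 0.233 CPM (log2 −4.05, adjusted p = 0.000207), and Zscan4c at 31.5 and 31.6 against 3.48 and 1.16 CPM. The knockout libraries differ here by several fold between themselves, yet all 8 genes lay below both wild-type values in both (32.5% of all genes did). Fewer cells of a type and less RNA per cell cannot be told apart in bulk RNA. Zscan4 genes and Dux belong to groups of near-identical copies, so the split of reads among single members is uncertain. None of the 8 was listed with a PCGF1, RING1B or SUZ12 peak at its promoter (0 of 8 for each). Over tested genes with an annotated start the shares were 2.19, 13.9 and 14.7%. Near-identical copies make the placing of peaks uncertain too, and a gene without an annotated start would count as having none.

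The same range held large falls of genes outside that list, among them a further Zscan4 gene. Zscan4a stood at 58.4 and 58.0 against 3.85 and 0.698 CPM (log2 −4.43), and the predicted genes Gm12794 and Gm13119 at 31.7 and 23.6 against 0.993 and 0.233 CPM and at 23.2 and 20.0 against 1.24 and 0.233 CPM. Crabp1, which encodes a cytoplasmic retinoic acid binding protein, fell from 24.1 and 19.4 to 1.61 and 0.465 CPM (log2 −4.17, adjusted p = 0.000113). S100a6, a calcium-binding protein gene, fell from 31.2 and 33.5 to 2.85 and 1.40 CPM (log2 −3.80). The 10 were completed by Tmem92 (log2 −4.22), Gm11544 (−3.78) and Gm10696 (−3.64), beside Zscan4d and Zscan4c. Across the RNA-seq libraries Zscan4a, Tmem92 and the 4 predicted genes moved as Zscan4d did. They were below wild-type in Pcgf2/4-/-, Pcgf3/5-/- and Pcgf1/2/4-/- and above it in Pcgf6-/-. Crabp1 and S100a6 did not share all of this pattern. Whether these falls are separate from that of the two-cell-like genes was not tested. Crabp1 alone of the 10 carried a wild-type RING1B or SUZ12 peak at its promoter among the 9 with an annotated start, and none carried a PCGF1 peak. Of tested genes with an annotated start, 13.9, 14.7 and 2.19% carried these peaks in turn.

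Many genes of the integrated stress response were raised. In that response, stalled initiation of translation favours synthesis of ATF4, which switches on genes of amino acid supply and of the further factors DDIT3 and ATF3. Of 22 tested genes on the list, 14 were raised (16.1% of all genes were) and 0 lowered, with a median log2 change of 0.93, and 11 were raised with the wild-type libraries as 1 sample. In 21 of the 22, both knockout libraries lay above both wild-type libraries, as in 32.3% of all genes. Beside Atf3, Ddit3 stood at 42.3 and 41.7 CPM in wild-type and 141 and 220 CPM in Pcgf1-/- (181 ± 55.7, SD, n = 2, log2 2.09, adjusted p = 5.12e-05). Chac1, a glutathione-degrading enzyme gene, stood at 34.4 and 35.3 against 121 and 121 CPM (log2 1.79, adjusted p = 8.30e-06). Aldh1l2, of mitochondrial folate metabolism, stood at 16.4 and 14.1 against 92.2 and 74.4 CPM (log2 2.46, adjusted p = 1.52e-05). Atf4 itself (log2 0.35, SE 0.17, adjusted p = 0.147) and Asns, asparagine synthetase (0.27, adjusted p = 0.417), did not pass. Of the serine and glycine synthesis enzymes, Psat1 was raised (log2 0.62, adjusted p = 0.0360, but 0.429 with the wild-type libraries as 1 sample), and Phgdh (0.41, adjusted p = 0.128) and Shmt2 (0.52, adjusted p = 0.0519) did not pass.

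**Figure D3:**
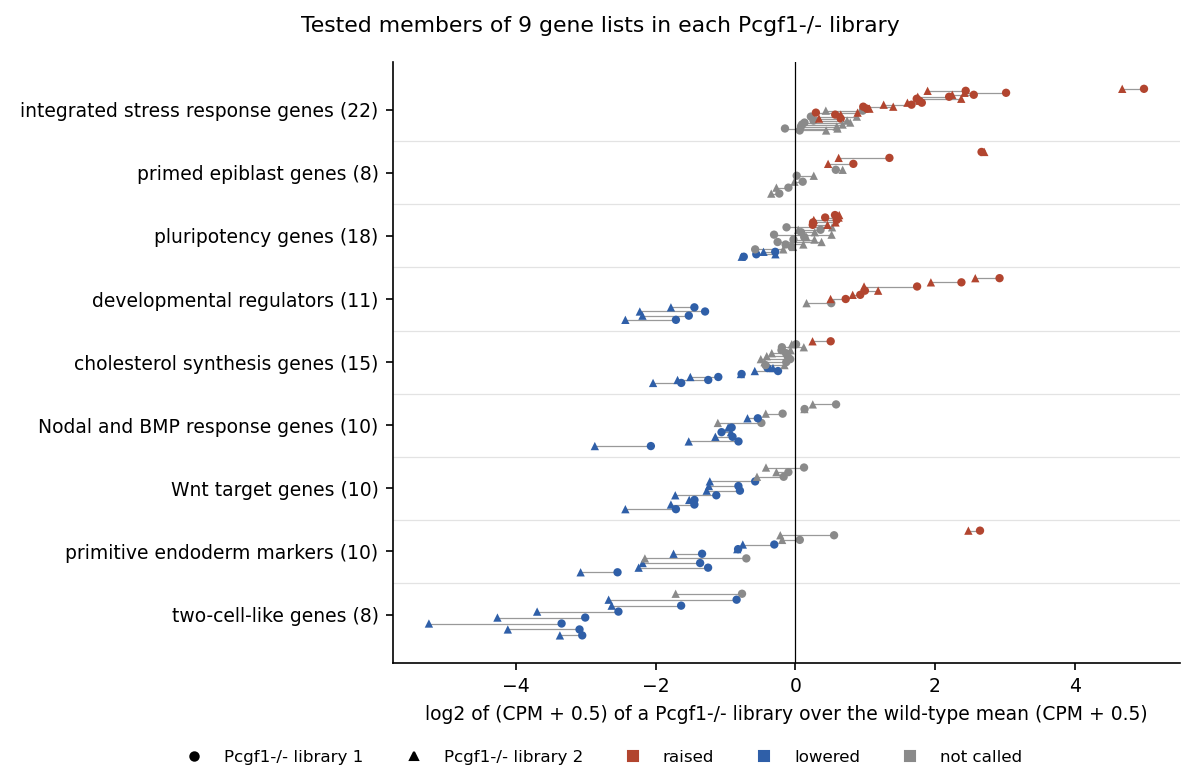
Log2 ratio of (CPM + 0.5) in Pcgf1-/- library 1 (circles) and library 2 (triangles) over the wild-type mean (x axis) for each tested member of 9 gene lists (rows, with the number tested), joined by a line per gene and coloured by the edgeR call. In 21 of the 22 stress response genes both libraries lie above both wild-type values, and all 8 two-cell-like genes lie below them.

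Most tested targets of Wnt signalling were lowered, in a medium that contains a GSK3 inhibitor, which stabilises β-catenin. Of 10 tested, 7 were lowered and 0 raised (13.6% of all genes were lowered), with a median log2 change of −1.09, and 4 were lowered with the wild-type libraries as 1 sample. Axin2, a feedback inhibitor of the pathway, stood at 77.7 and 79.5 CPM against 44.4 and 33.0 CPM (log2 −0.998, adjusted p = 0.000682). The caudal homeobox genes Cdx1 (53.8 and 60.2 against 20.6 and 19.5 CPM) and Cdx2 (72.4 and 78.9 against 27.4 and 21.6 CPM) had log2 changes of −1.5001 and −1.60. T, the mesoderm factor brachyury, fell from 36.9 and 30.4 to 9.93 and 5.81 CPM (log2 −2.03, adjusted p = 0.000470). Lef1 (log2 −0.18), Tcf7 (−0.10) and Znrf3 (−0.33) did not pass. Cdx2 and T also stand on the list of developmental regulators below.

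Of 10 tested response genes of BMP and Nodal signalling, 6 were lowered (13.6% of all genes were) and 0 raised, with a median of −0.84, and 4 were lowered with the wild-type libraries as 1 sample. Id1 and Id3, BMP-induced inhibitors of helix-loop-helix factors, stood at 82.7 and 82.2 against 43.9 and 37.0 CPM and at 125 and 127 against 60.3 and 66.3 CPM, log2 changes of −1.01 and −1.0004 (adjusted p = 0.000295 and 0.000143). Lefty2, a Nodal antagonist, stood at 104 and 109 against 56.4 and 54.4 CPM (log2 −0.94, adjusted p = 0.000193), whereas its relative Lefty1 (log2 0.45, adjusted p = 0.0817) and Nodal (0.13, adjusted p = 0.409) did not pass.

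Genes that respond early to growth factors and ERK moved both ways, 4 of 14 up and 4 down, where 16.1% and 13.6% of all genes were raised and lowered (1 and 2 with the wild-type libraries as 1 sample), in cells that all had a MEK inhibitor. Myc fell from 114 and 118 to 36.5 and 25.1 CPM (log2 −1.88, SE 0.15, adjusted p = 3.75e-05). Spry4, an inhibitor of receptor tyrosine kinase signalling, fell from 102 and 97.4 to 30.9 and 22.3 CPM (log2 −1.87, adjusted p = 3.52e-05). Fos rose from 0 and 0.143 to 4.22 and 3.02 CPM (log2 5.37, adjusted p = 0.000320), with a wild-type group total of 1 count. Klf6 was raised, from 128 and 135 to 199 and 219 CPM (log2 0.67, adjusted p = 0.00228, but 0.171 with the wild-type libraries as 1 sample).

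Of 15 tested genes of cholesterol metabolism, 6 were lowered and 1 raised (13.6% and 16.1% of all genes were), with 4 and 0 when the wild-type libraries were 1 sample. The lowered genes included Dhcr7, the last enzyme of one branch of the pathway, which stood at 67.6 and 66.5 against 27.9 and 20.5 CPM (log2 −1.44), and Insig1, a sterol sensor, at 30.4 and 34.8 against 14.9 and 11.2 CPM (log2 −1.29). Fdft1, squalene synthase, fell by 0.78 on the log2 scale. The pathway did not move as a whole: Sqle (log2 −0.03), Cyp51 (−0.02), Sc4mol (−0.14), Srebf2 (−0.27) and 4 further genes did not pass, and Lss was raised (0.39, adjusted p = 0.0278).

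Most pluripotency genes did not pass the test. Summed over 18 markers, the level was 3506 and 3519 CPM in wild-type and 3280 and 4041 CPM in Pcgf1-/- libraries, so the labelled cell type held in all 4. Of the 18, 5 were raised and 3 lowered (16.1% and 13.6% of all genes were), but 0 and 1 with the wild-type libraries as 1 sample. Pou5f1 (log2 0.09, SE 0.19), Nanog (−0.01, SE 0.12) and Esrrb (−0.04, SE 0.14) did not pass the test. The gene that remained called was Lin28a, an RNA-binding repressor of let-7 maturation, from 176 and 176 to 105 and 103 CPM (log2 −0.76, adjusted p = 0.000628 and, as 1 sample, 0.0250). Of 8 tested genes of the primed epiblast state, 3 were raised, and 1 was with the wild-type libraries as 1 sample, Sall2, a zinc finger factor gene, from 0.436 and 0.286 to 4.97 and 5.12 CPM (log2 3.73, adjusted p = 0.000278).

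Primitive endoderm markers summed to 520 and 522 CPM in wild-type and 421 and 357 CPM in Pcgf1-/- libraries, and the defining factors Gata4, Gata6, Sox17 and Foxa2 were listed at 0 in all 4. Of 10 tested, 6 were lowered and 1 raised, against 13.6% and 16.1% of all genes (5 and 1 with the wild-type libraries as 1 sample). The lowered ones were mainly matrix genes, such as Lamb1, a laminin chain (16.4 and 14.6 against 2.23 and 1.40 CPM, log2 −3.00), and Sparc (229.9 and 233 against 131 and 130 CPM, log2 −0.83). Hnf4a, a nuclear receptor gene, fell from 21.7 and 18.1 to 7.57 and 5.58 CPM (log2 −1.56). Amn, whose product is part of a vitamin B12 receptor, was raised from 5.81 and 5.14 to 36.9 and 32.8 CPM (log2 2.67, adjusted p = 7.22e-05). Trophoblast markers summed to 323 and 335 against 383 and 327 CPM (3 raised and 2 lowered of 9 tested), mesendoderm to 59.4 and 54.7 against 40.5 and 31.2 CPM (0 and 1 of 3), neural to 140 and 143 against 146 and 118.6 CPM (1 and 1 of 4) and fibroblast to 48.4 and 44.3 against 39.0 and 27.7 CPM (0 and 1 of 3). Col6a1, Postn and Dcn of the fibroblast list were at 0 throughout. The part of a few differentiating cells in these results was not tested.

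Of 40 developmental regulators on a list of such genes, 29 had too few counts in all 4 libraries to be tested. Of the 11 tested, 6 were raised and 4 lowered, against 16.1% and 13.6% of all genes (3 and 4 with the wild-type libraries as 1 sample). The raised ones were led by posterior Hox genes, which set position along the body axis: Hoxa9 stood at 1.60 and 0.999 CPM against 13.2 and 10.2 CPM (log2 3.18, adjusted p = 0.000289) and Hoxb13 at 9.01 and 8.42 against 47.4 and 34.9 CPM (log2 2.25, adjusted p = 0.000136). Neurog3, a factor of endocrine cell fate, stood at 0.581 and 0.571 against 3.10 and 1.63 CPM (log2 2.104, adjusted p = 0.00734). The lowered ones were Cdx2, T, Gata3 and Gata2. Of the 11, 9 carried a wild-type RING1B peak at the promoter, 9 a SUZ12 peak and 3 a PCGF1 peak, where 13.9, 14.7 and 2.19% of tested genes with an annotated start did. The 3 with a PCGF1 peak, Gata2, Gata3 and Cdx2, were all lowered, and Hoxb13, which was raised, carried none of these peaks.

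A gene was taken to carry a peak when a wild-type peak overlapped the 2.5 kb either side of an annotated start by at least 1 bp. The wild-type PCGF1 list held 736 peaks, with a median fold enrichment of 7.09 in the authors' deposited list, far fewer than the 5454 of RING1B and 6473 of SUZ12, and the Pcgf1-/- list 15. PCGF1 peaks lay at the promoters of 570 genes, of which 288 were tested, through 325 peaks. Of these 288, 83 were raised (28.8%) and 41 lowered (14.2%), where 16.1% and 13.6% of the 13134 tested genes with an annotated start were. With the wild-type libraries as 1 sample, 45 were raised and 24 lowered. The other 164 did not pass the test.

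Sequences are shown at the peaks of PCGF1-peak genes with the largest rises, where a called peak of the missing protein and a rise coincide. Each is the plus strand of NCBIM37 within 100 bases of the summit, with CG in capitals, the dinucleotide that KDM2B recognises when unmethylated (the letters CG were searched, and they read the same on both strands).
Hoxa10: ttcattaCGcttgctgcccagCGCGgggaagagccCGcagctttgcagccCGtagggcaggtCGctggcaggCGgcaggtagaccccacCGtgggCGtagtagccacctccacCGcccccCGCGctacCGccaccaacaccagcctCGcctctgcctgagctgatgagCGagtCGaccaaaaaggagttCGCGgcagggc
Col26a1: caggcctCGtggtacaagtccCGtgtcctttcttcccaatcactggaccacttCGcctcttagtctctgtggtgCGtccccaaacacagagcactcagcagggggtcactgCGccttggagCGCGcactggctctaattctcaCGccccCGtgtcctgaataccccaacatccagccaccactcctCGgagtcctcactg
Tmem63a: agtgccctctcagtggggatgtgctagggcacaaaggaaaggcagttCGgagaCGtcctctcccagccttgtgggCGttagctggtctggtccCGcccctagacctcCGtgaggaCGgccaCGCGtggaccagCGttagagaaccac
Arhgap9: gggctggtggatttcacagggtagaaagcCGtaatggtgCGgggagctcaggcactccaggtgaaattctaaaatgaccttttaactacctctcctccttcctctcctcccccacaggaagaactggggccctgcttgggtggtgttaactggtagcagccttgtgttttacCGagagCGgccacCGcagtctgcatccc

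These peaks were among the weaker ones of the PCGF1 list, whose −log10 q had a lowest value of 5.54 and a median of 6.49. Theirs were 5.86 (Hoxa10), 6.49 (Col26a1), 5.77 (Tmem63a) and 5.58 (Arhgap9). The Hoxa10 window (chr6:52184667-52184866) lies in the first coding exon, with the summit 171 bases past an annotated start inside the gene, and held 18 CG. The Col26a1 window (chr5:137358109-137358308) is intronic, 404 bases past an annotated start inside the gene, with 10 CG. The Tmem63a summit lies 47 bases before the start. Its window held 14 CG, of which 9 are in the 147 bases printed, those upstream of the transcript (chr1:182872328-182872474). The Arhgap9 window (chr10:126762987-126763186), 2304 bases past an annotated start inside the gene, at the border of an intron and a coding exon, held 5 CG. In windows of the same 200 bases at all 86877 annotated starts the median was 6 CG, and 22.9, 39.9, 31.7 and 57.3% of starts held at least as many as these 4 in turn. Around all 736 PCGF1 summits the median was 15 CG, and 99.9% held at least 1, as did 92.6% of starts.

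Hoxa10, a posterior Hox gene next to Hoxa9, stood at 3.78 and 4.28 CPM in wild-type and 28.1 and 20.0 CPM in Pcgf1-/- libraries (log2 2.59, adjusted p = 0.000244). Arhgap9, of a protein that activates small GTPases' hydrolysis of GTP, stood at 1.45 and 1.57 against 15.0 and 10.9 CPM (log2 3.11). Col26a1, a collagen gene, stood at 5.52 and 3.71 against 32.3 and 20.2 CPM (log2 2.53), and Tmem63a, of a mechanosensitive channel, at 5.52 and 5.14 against 33.1 and 24.2 CPM (log2 2.44). Serinc2 stood at 13.1 and 13.0 against 72.2 and 65.1 CPM (log2 2.40, adjusted p = 1.57e-05). Each of these 5 also carried PCGF2, RING1B and SUZ12 peaks. Arhgap9, Col26a1 and Tmem63a overlap other annotated genes, so some of their reads may belong to those. The largest falls at PCGF1-peak genes were smaller. Ppargc1b, a transcriptional coactivator of mitochondrial genes, stood at 9.88 and 8.57 against 2.11 and 1.63 CPM (log2 −2.25, adjusted p = 0.00115), and Parvb, of a focal adhesion protein, at 19.8 and 20.3 against 5.09 and 5.12 CPM (log2 −1.97), with no RING1B or SUZ12 peak. Gata3 (log2 −1.88), Spry4 (−1.87) and G530011O06Rik (−1.82) followed.

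RING1B-peak genes were raised in 25.5% and lowered in 17.7% of 1822 tested (228 and 172 genes with the wild-type libraries as 1 sample), and SUZ12-peak genes in 27.7% and 17.3% of 1930 (266 and 180). The shares were near each other with and without a PCGF1 peak: of 256 genes with all 3 peaks, 29.3% were raised and 14.8% lowered, and of 1294 with RING1B and SUZ12 but no PCGF1 peak, 27.2% and 19.4%. The 23 genes with a PCGF1 peak alone had 6 raised and 3 lowered. Of 10909 genes with none of the 3, 14.1% were raised and 13.0% lowered.

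**Figure D4:**
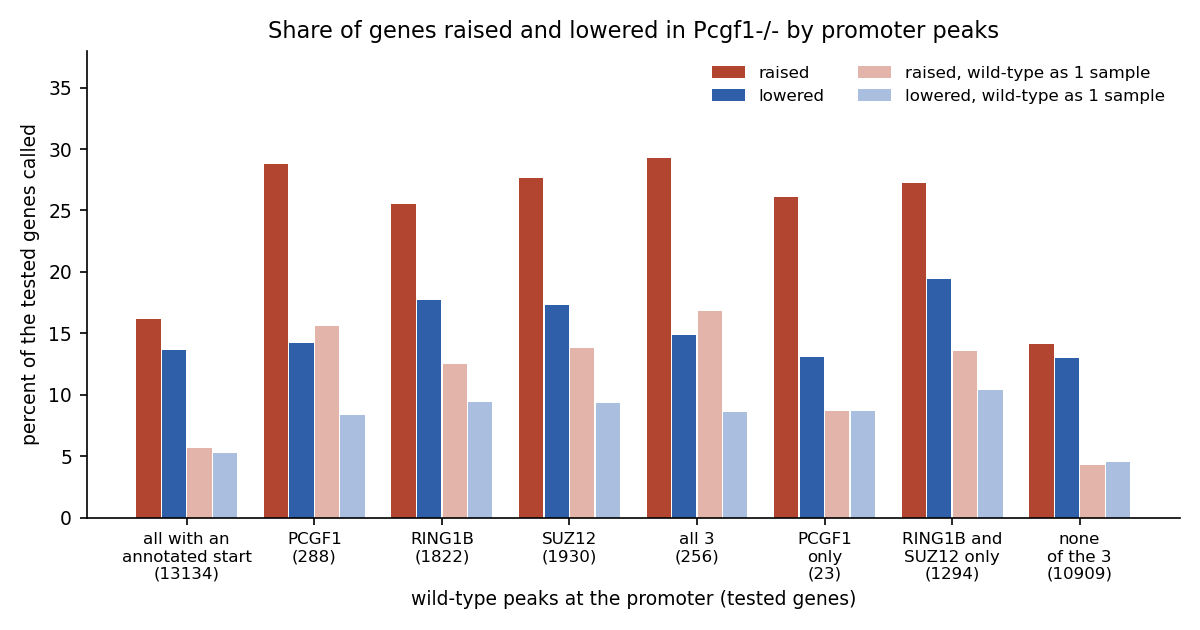
Percent of tested genes raised (red) and lowered (blue) in Pcgf1-/- by wild-type peaks at the promoter (x axis, number tested in brackets), with paler bars for the calls with the wild-type libraries as 1 sample. PCGF1, RING1B and SUZ12 classes reach 28.8, 25.5 and 27.7% raised against 16.1% of all genes, and the classes without a PCGF1 peak but with both others reach 27.2%.

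The shift of these classes differed between the knockout libraries. The median log2 change of PCGF1-peak genes was 0.17, higher by 0.15 than that of the other genes, but the difference was 0.30 in library 1 and 0.01 in library 2. For RING1B-peak genes it was 0.06, with 0.19 and −0.07 in the libraries, and for SUZ12-peak genes 0.12, with 0.28 and −0.04. The bound genes were low, with a median wild-type level of 6.87 CPM for the PCGF1 class against 42.6 CPM over all genes, which is the range in which the knockout libraries differed from each other most. Between a mean log2 CPM of 2 and 5, 31.2% of 138 PCGF1-peak genes were raised, against 19.2% of all 4021 genes in that range. In the same range 26.5% of RING1B-peak and 28.5% of SUZ12-peak genes were raised. Below 2, the shares were 30.5% of 95 PCGF1-peak genes and 21.1% of all 1763. At 5 or more they were 20.0% of 55 and 13.3% of all 7350. At PCGF1 peaks with a −log10 q of at least 10, which are 74 of the 736, the difference of medians was −0.19 over 39 tested genes.

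Seen from the changed genes, 3.91% of the raised genes carried a PCGF1 peak (95% Wilson interval 3.17 to 4.83%), 2.29% of the lowered (1.69 to 3.09%) and 1.78% of those not called (1.53 to 2.07%). These intervals cover the counting of genes only. They leave out the difference between the knockout libraries, so they are no test of these shares. RING1B peaks were at 21.9% of raised, 18.0% of lowered and 11.2% of uncalled genes, and SUZ12 peaks at 25.2, 18.6 and 11.5%. Most changed genes, in both directions, carried no PCGF1 peak as called. Among genes raised by at least 1 on the log2 scale, the shares were 6.72% for PCGF1, 35.6% for RING1B and 40.7% for SUZ12, and among genes lowered by at least 1 they were 3.96, 29.7 and 31.5%. These shares were not matched for level. RING1B and SUZ12 peaks were at 559 and 634 of 1763 tested genes below a mean log2 CPM of 2, and at 383 and 326 of 7350 at 5 or more. The part of level in these shares was not tested.

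At the 570 promoters with a wild-type PCGF1 peak, the Pcgf1-/- lists held PCGF1 peaks at 2 (0.351%). RING1B peaks were at 94.0% in the wild-type list (91.8 to 95.7%) and at 88.1% in the Pcgf1-/- list (85.2 to 90.5%), and SUZ12 peaks at 94.6% (92.4 to 96.1%) and 90.0% (87.3 to 92.2%). PCGF2 peaks went from 85.1 to 77.5%. H2AK119ub1 peaks, the mark placed by PRC1, were at 51.6% and 71.4%, in lists of 1741 and 10882 peaks, and H3K27me3 peaks at 88.1% and 89.3%, in lists of 8063 and 20147, so the lists themselves differ in size. Over all 21976 genes with an annotated start, RING1B peaks were at 15.7% in the wild-type list and 15.8% in the Pcgf1-/- list. SUZ12 peaks were at 17.0 and 15.7% of them, and PCGF2 peaks at 13.3 and 12.9%. H2AK119ub1 peaks were at 3.92 and 10.3%, and H3K27me3 peaks at 13.2 and 20.0%. Intervals cover counting error only, and with 1 list per antibody and line these shares have no replicate check. Genes whose RING1B peak was in the wild-type list but not in the Pcgf1-/- list were raised in 28.3% and lowered in 13.7% of 329, and genes with it in both lists in 24.9% and 18.6% of 1493. For SUZ12 the shares were 30.6% and 12.1% of 431 against 26.8% and 18.8% of 1499. These differences were not tested.

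Genes of the Y chromosome were almost absent from the Pcgf1-/- libraries. Eif2s3y, a translation initiation factor gene, stood at 125 and 123.9 CPM in wild-type and 0.372 and 0.465 CPM in Pcgf1-/- (log2 −8.20, adjusted p = 1.96e-08), and Ddx3y, an RNA helicase gene, at 106 and 101 against 0.372 and 0.233 CPM. Uty, a histone demethylase relative, stood at 51.1 and 45.8 CPM in wild-type and had 0 knockout counts, at least 199.7-fold lower by a floor of 3 counts over the group, and Zfy1 had 66 wild-type and 0 knockout counts, at least 19.6-fold lower. All 5 tested genes placed on the Y were lowered. In the 14-library scaling, Eif2s3y lay between 0 and 1.26 CPM in the Pcgf2/4-/-, Pcgf3/5-/-, Pcgf6-/- and Pcgf1/2/4-/- libraries and at 60.3 and 63.2 CPM in Pcgf3/5/6-/-, so other lines also had a low level. On the X chromosome 44 of 459 tested genes were raised and 104 lowered, where 16.1% and 13.6% of all tested genes were. The median log2 change on the X was −0.10, while the autosomal medians lay between −0.04 and 0.08. The part of sex chromosome content in the other results was not tested.

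The Pcgf1-/- line was also tested against 3 knockout lines that keep Pcgf1 (Pcgf2/4-/-, Pcgf3/5-/- and Pcgf6-/-, 2 libraries each), in an edgeR fit over all 14 libraries. The rule asks that Pcgf1-/- lie beyond wild-type and beyond each of these lines. It does not ask that these lines match wild-type, so a change that they share to a lesser degree can meet it. Of 13420 genes, 494 were raised against wild-type and against each of these lines (3.68%) and 479 were lowered (3.57%), and 294 and 265 with the wild-type libraries as 1 sample. Of the stress response list 5 of 22 genes were in that raised set, and of cholesterol genes 3 of 15 and of primitive endoderm markers 4 of 10 were in the lowered set. None of the 8 two-cell-like genes (0) and none of the 10 Wnt targets (0) met the rule in this fit.

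**Figure D5:**
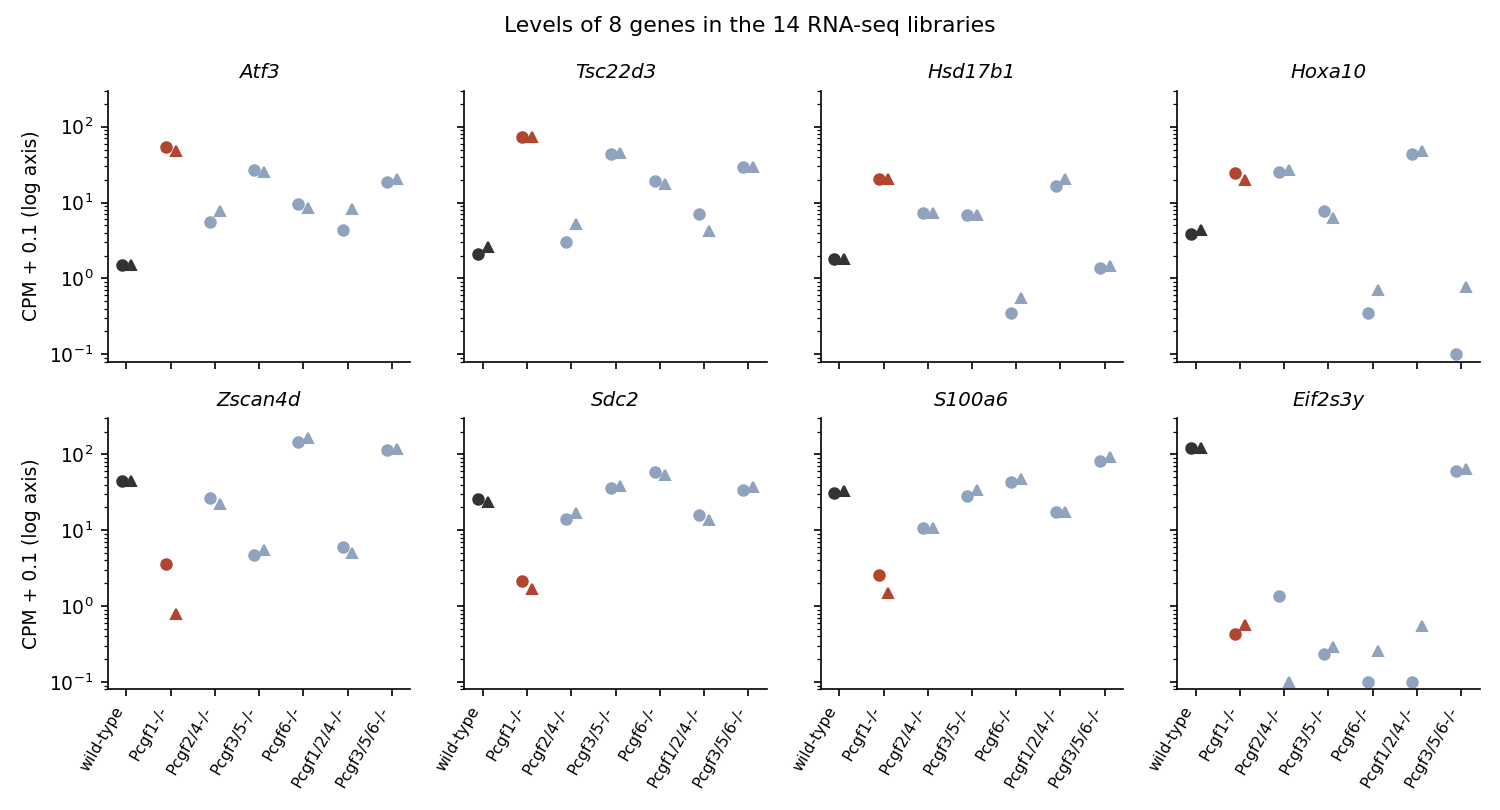
CPM + 0.1 on a log axis (y) of 8 genes in the 14 RNA-seq libraries by line (x), scaled together, with library 1 as circles and library 2 as triangles, wild-type in black and Pcgf1-/- in red. Atf3 and Tsc22d3 are highest in Pcgf1-/- and next in Pcgf3/5-/-, Sdc2 and S100a6 are lowest in Pcgf1-/-, and Hoxa10 is as high in Pcgf2/4-/- and higher in Pcgf1/2/4-/-.

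In that scaling Atf3 was also above wild-type in other lines, at 26.7 and 24.9 CPM in Pcgf3/5-/- against 54.0 and 48.5 in Pcgf1-/- and 1.43 and 1.41 in wild-type libraries. Hoxa10 stood at 25.1 and 26.7 CPM in Pcgf2/4-/-, 24.7 and 19.7 in Pcgf1-/-, 43.2 and 47.4 in Pcgf1/2/4-/- and at most 0.676 CPM in Pcgf6-/- and Pcgf3/5/6-/-. Zscan4d, low in Pcgf1-/-, was also low in Pcgf3/5-/- (4.68 and 5.37 CPM) and stood at 145 and 165 CPM in Pcgf6-/-, above wild-type (44.1 and 44.6). These lines share the wild-type libraries as controls.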

How the data were processed

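RNA-seq of 2 wild-type and 2 Pcgf1-/- libraries (poly-A RNA, a modified SMART-seq2 protocol, per the labels' protocols) was analysed with 14 ChIP-seq peak lists: 7 antibodies in each line. The authors deposited whole-number counts per gene symbol, without normalization. The submitters' processing notes name build mm9, TopHat2 2.1.1, Bowtie 1.2.2, Picard 1.62, HTSeq 0.7.2, MACS2 2.1.1 and DESeq2. Whether counting used strand is not given in the sources used here. Peaks were deposited per sample with a fold enrichment (a ratio) and −log10 p and q values. The authors' deposited comparison table gave log2 fold changes and adjusted p-values, which were only set beside the results. Mapped columns cover every sample column of the count table (0 unmapped).

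Genes passing filterByExpr (13450) were tested with edgeR 4.0.16 (R 4.3.3, TMM, quasi-likelihood, two-sided, Benjamini-Hochberg, threshold 0.05) on the 4 libraries alone. The common dispersion was 0.0115. Standard errors are the absolute log2 fold change over the root of the F statistic. The script was tested on simulated data. Over 3533 sparse untested genes the wild-type pair exceeded sampling noise slightly (chi-square 1.08 per degree of freedom). Genes and peaks were placed on NCBIM37 with the GENCODE M1 annotation (13134 tested genes matched, some by older symbols, such as Emid2 for Col26a1). A group without counts was given a floor of 3 counts, 0.216 CPM in wild-type and 0.243 CPM in Pcgf1-/-. Counts without molecular identifiers are not counts of molecules, so intervals and floors cover counting error only.

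Named genes are Pcgf1; the 10 largest changes each way among called, non-overlapping genes whose mean log2 CPM (prior count 2) reached 2, Pcgf1 and Y-linked genes not counted; under the same conditions, the 5 each way with a wild-type PCGF1 peak; up to 4 members of each of 27 gene lists by adjusted p, and all of the PCGF, PCGF1 complex and Y-linked lists; and the 5 each way of the comparison with other lines. Not all are printed. Further list members are given to show the range of their list. The genes and lists were chosen with earlier results of these data known. Alternatives were RLE factors, other filters, DESeq2 1.42.0, all 14 libraries, a replicate block, the wild-type libraries as 1 sample, thinned counts, loess offsets, single libraries left out, other thresholds, promoter windows of 1 and 5 kb and stricter peaks.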

Additional observations from a re-analysis of the deposited data

Results flagged for a closer look

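These 10 genes were named because they were called against wild-type and against each of 3 other knockout lines that keep Pcgf1 (edgeR over 14 libraries, Benjamini-Hochberg), so that they differ between lines is how they were chosen and their values are a description. Log2 changes against wild-type are from the fit of 4 libraries, and those against the other lines from the fit of 14. Atf3 was raised by 5.25 on the log2 scale over wild-type, and was 2.89, 0.99 and 2.53 above Pcgf2/4-/-, Pcgf3/5-/- and Pcgf6-/-. Tsc22d3 was raised by 5.08, and by 4.01, 0.71 and 1.99 over those lines in turn. In the 14-library scaling Tsc22d3 stood at 2.00 and 2.53 CPM in wild-type. It was above this in those lines too, at 2.93 and 5.11, 44.0 and 45.3, and 19.2 and 17.5 CPM in turn. Lbx2, next to the edited gene, was raised by 4.17, and by 2.99, 4.38 and 3.54. Hsd17b1 was raised by 3.66, and by 1.497, 1.61 and 5.80. Hhip was raised by 3.50, and by 2.59, 1.14 and 2.19.

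Gm12794 had a log2 change of −5.22 against wild-type, and of −3.63, −2.13 and −7.46 against the other lines. In the 14-library scaling Gm12794 stood at 31.1 and 23.2 CPM in wild-type. It was also below this in Pcgf2/4-/- (6.70 and 9.20 CPM) and Pcgf3/5-/- (3.34 and 2.49 CPM), and above it in Pcgf6-/- (116 and 125 CPM). Gm13119 had −4.59, then −3.32, −2.11 and −7.64. S100a6 had −3.80, then −2.29, −3.83 and −4.39. Gm10696 had −3.64, then −3.41, −1.66 and −6.86. Sdc2, a heparan sulphate proteoglycan gene at 26.4 and 23.8 CPM in wild-type and 2.36 and 1.63 CPM in Pcgf1-/- libraries, had −3.58, then −3.03, −4.26 and −4.85.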

How the results depend on the processing

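Without 1 library, 1253 to 8989 genes changed, 637 to 4586 raised and 608 to 4403 lowered: 1301 and 1253 without a wild-type library and 7860 and 8989 without a Pcgf1-/- library, where the spread rests on the near-identical wild-type pair alone. The lone library of a group is then assumed to vary like the other group. With the wild-type libraries as 1 sample 1644 changed (861 raised, 783 lowered), at a log2 change of at least 1 it was 1933 (1072 and 861), and at an adjusted p below 0.01 it was 2249 (1237 and 1012). Lowered genes came to 2853 with all 14 libraries and 2858 with loess offsets. With the replicate number as a block (replicate block), 3049 genes changed, 2015 raised and 1034 lowered (66.1% raised). The labels tie the numbers to nothing shared. Deviations of same-numbered libraries correlated at 0.081 over 2 pairs. The wild-type deviations did not exceed sampling noise over tested genes, so this value cannot tell whether the numbers pair the libraries. Genes called in the opposite direction to the 4-library edgeR fit numbered 0 in every alternative fit.

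Genes apart from the other lines numbered 859 raised with loess offsets and, without 1 library, 235 to 728 raised and 228 to 403 lowered. The median difference of PCGF1-peak genes moved to −0.194 with stricter peaks. At PCGF1-peak promoters, stricter peaks gave SUZ12 in 97.1% and H3K4me3 in 100% of wild-type, H3K4me3 in 100% of Pcgf1-/- and H2AK119ub1 in 35.3% of wild-type, and a 1 kb window gave H2AK119ub1 in 40.8% and 63.2% and H3K27me3 in 84.4% of wild-type.

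Without Pcgf1-/- library 1 the median differences of PCGF1, RING1B and SUZ12 genes were −0.0235, −0.113 and −0.0803. Among the named genes tested for it, signs turned for uncalled ones. Pcgf3 had a log2 change of −0.0019 with RLE factors, −0.017 with DESeq2, −0.082 with 14 libraries, −0.011 with wild-type as 1 sample, −0.038 with loess offsets and −0.29 to 0.21 without single libraries. With the replicate block Rnf2 had −0.025, Ring1 −0.017 and Usp7 0.0074. Bcorl1 had −0.017 with 14 libraries and Usp7 0.058 with thinned counts. Without single libraries Rnf2 ranged from −0.018 to 0.295, Rybp from −0.064 to 0.236, Ring1 from −0.017 to 0.345, Bcorl1 from −0.144 to 0.224 and Usp7 from −0.027 to 0.018. Of 106 called named genes, 73 were called in every setting. The cause of these shifts was not tested. With 2 libraries a group, low genes of the shallower Pcgf1-/- library limit what can be seen.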

Other observations

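For the lists here, 16.1% of all tested genes were raised and 13.6% lowered. Of 19 germline genes 4 were raised and 3 lowered, shares of 21.1% and 15.8% (2 and 3 with the wild-type libraries as 1 sample). Stra8, a gene of entry into meiosis, was raised from 5.38 and 6.57 to 31.3 and 30.2 CPM (log2 2.36, adjusted p = 0.000154, edgeR), and Sycp3, of the synaptonemal complex, from 14.2 and 13.1 to 37.2 and 40.5 CPM (log2 1.4997). Mei1 had 30 wild-type and 0 knockout counts, at least 8.89-fold lower. Among canonical PRC1 subunits 2 of 10 were raised, among them Cbx2 (log2 0.71), and 1 was lowered, Cbx7 (−0.46), or 1 and 0 with the wild-type libraries as 1 sample. Of 11 PRC2 subunits, Jarid2 was raised (log2 0.48) and Ezh2 (−0.46), Aebp2 (−0.46) and E130012A19Rik (−0.90) were lowered, and 0 passed with the wild-type libraries as 1 sample in edgeR, while DESeq2 called 2.

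Of 21 genes of glycolysis and hypoxia, 5 were lowered and 1 raised (2 and 0 with the wild-type libraries as 1 sample). The lowest adjusted p was that of Pdk1, a kinase that inhibits pyruvate dehydrogenase, at 126 and 125 against 65.9 and 53.3 CPM (log2 −1.06, adjusted p = 0.000201). Of 7 cyclin-dependent kinase inhibitor genes 2 were raised, Cdkn1b (log2 1.08) and Cdkn2b (0.99), of which 1 passed with the wild-type libraries as 1 sample, while Cdkn1a (0.26, adjusted p = 0.198) did not pass. Of 16 p53 targets 5 were raised and 1 lowered (1 and 1 with the wild-type libraries as 1 sample). The lowered gene was Fas, with 22 wild-type and 0 knockout counts. Of 17 imprinted genes 3 were raised and 3 lowered (1 and 1 with the wild-type libraries as 1 sample), among them Plagl1 (98.8 and 102 against 208 and 206 CPM, log2 1.04) and Mest (93.7 and 93.7 against 53.3 and 48.8 CPM, log2 −0.87). Of 9 genes of DNA methylation enzymes, Dnmt3a (log2 0.68) and Tet3 (0.78) were raised, but with the wild-type libraries as 1 sample their adjusted p was 0.106 and 0.318 (edgeR). Of 84 ribosomal protein genes 1 was raised, Rpl3l, and the median ratio was −0.26 in Pcgf1-/- library 1 and 0.46 in library 2. Of 9 housekeeping genes 1 was lowered, B2m (log2 −0.45), and 0 passed with the wild-type libraries as 1 sample.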
